A study of Mus musculus with 5 samples.

Results

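Regulated exocytosis, the fusion of a storage vesicle with the plasma membrane on a calcium signal, was followed through 38 genes that encode its presynaptic and vesicle machinery. The genes were taken by symbol from a fixed list, and all 38 were found among the 55573 genes of the deposited table. RNA sequencing had been done on 3 tumours of Th-Cre:MYC mice and on the pancreas of 2 wild-type littermates, and the stated aim was to compare pancreas tumour with normal pancreas. In the tumour mice Cre is driven by the promoter of tyrosine hydroxylase, a gene of catecholamine-producing cells, and removes a stop in front of a MYC transgene under the CAG promoter. The transgene is therefore switched on in any cell that has used that promoter and in its descendants, and the labels do not name the cell of origin. The series title calls the mice a neuroblastoma model. Ultrasound was used to follow the tumours, and the normal pancreas alone is described as perfused with an RNA-preserving solution before it was taken. Ages are not given in the labels. Tumours 1 and 2 share a number in their titles, which may or may not mean a shared animal, so p-values measure only the spread between these libraries.

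Vesicles are docked by Rab3 GTPases and active zone scaffolds, made ready by priming factors, and fused when a vesicle SNARE zips up with plasma membrane SNAREs. The ATPase NSF and its SNAP adaptors then take the SNARE complex apart, and clathrin adaptors, dynamin and their partners retrieve the membrane. Neurons use this machinery for synaptic vesicles, and pancreatic islet cells use much of it for hormone granules. Acinar cells release zymogen granules with other members of the same families.

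Library totals were 48848987 and 51669489 estimated counts in normal pancreas and 15074489, 12601496 and 6611967 in tumours 1, 2 and 3. Acinar markers made up the bulk of the normal libraries, at a summed 262400 and 263100 TPM (transcript abundance corrected for length, each library scaled to the same total) over 7 genes, against 26.2, 10.1 and 627 TPM in the tumours. All 7 acinar markers fell in tumour. The TMM scaling factors followed, at 0.271 and 0.263 in normal pancreas and 2.50, 2.57 and 2.19 in the tumours. The choice of scaling set the size of every fold change: the median log2 fold change of the 16810 genes tested was 0.38 with TMM and 3.55 with total counts only. Of 8 islet endocrine markers, 6 rose, and the summed level of all 8 was 44.4 and 46.2 TPM in normal pancreas and 40840, 15200 and 24420 TPM in the tumours. Sst alone made up 30670, 11740 and 19430 TPM of the tumour sums. The 2 that did not pass were the insulin genes Ins1 and Ins2 (log2 -0.87 and -1.35). Among 7 pan-neuronal markers 6 rose, from a summed 0.52 and 0.46 TPM to 37.6, 16.3 and 20.2 TPM. Of 7 sympathetic neuron and chromaffin markers, Dbh and Pnmt were at 0 counts in all 3 tumours, and the list summed to 0.07 and 0.12 TPM in normal pancreas and 6.56, 3.64 and 0.69 TPM in tumour. Parasympathetic neuron markers stayed at or under 0.04 TPM and Schwann markers at or under 0.88 TPM in each library. Lymphocyte markers summed to 12.7 TPM in tumour 2 and to at most 2.16 TPM in each other library. These cell type values moved with the tissue, and their part in the results for the 38 genes was not tested. In bulk tissue more cells of a type and more RNA per cell cannot be told apart.

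The exocytosis genes were mostly higher in tumour. Of the 37 that had enough counts for the test (all but Slc17a6), 26 rose, 2 fell (Unc13b and Cadps2) and 9 did not pass (edgeR quasi-likelihood test, Benjamini-Hochberg adjusted p under 0.05 over 16810 genes). Among all genes tested, 39.2% were called higher and 27.8% lower. The median log2 fold change of the 37 genes was 3.18, also with the genes at 0 in normal pancreas set to their lower bound, against 0.38 for all genes. The filter on low counts keeps a gene that is absent from normal pancreas only if tumour reads carry it, which in part sets the number of rises. In CPM (counts scaled by the TMM library size), every tumour lay above both normal libraries for 29 of the 38 genes and below both for 2, with overlap for 7. Over all genes tested these shares were 46.8% above and 34.2% below.

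With total counts only, all 37 tested genes passed as higher, where 93.3% of all genes did, and none passed as lower, where 2.37% did. A change of scaling shifts nearly every log2 fold change by a similar amount. The position of the 37 genes relative to the rest could therefore hardly move, and it is no check of the result. Measured from the median of all genes, their median log2 fold change was 2.80 with TMM and 2.72 with total counts, and 31 lay above the general median and 6 below it under both scalings. The 6 below were Vamp2, Unc13b, Cadps2, Rph3al, Syn2 and Ptprn2. Directions given for single genes below are those under TMM, and the falls of Unc13b and Cadps2 turn into rises with total counts only. With limma on log2(TPM + 1), 32 of 37 passed as higher and 0 as lower, against 57.6% and 7.19% of the genes in that fit.

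**Figure D1:**
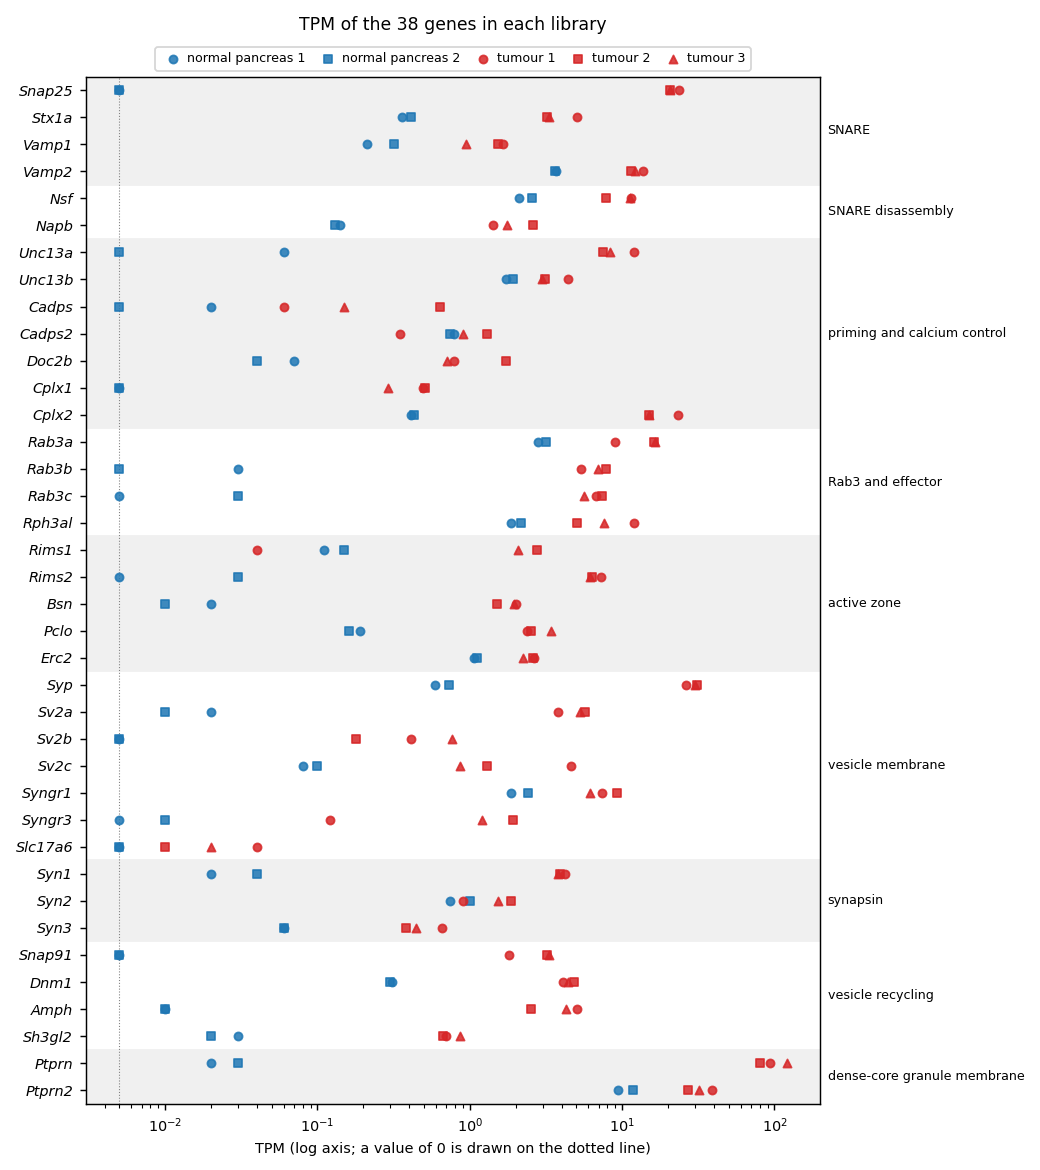
TPM on a log axis of the 38 genes in each of the 5 libraries, grouped by role; each point is 1 library and values of 0 are drawn on the dotted line. In 35 of 38 genes every tumour lies to the right of both normal libraries, as do 76.1% of all genes tested on this scale, and Ptprn is the highest in each tumour.

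**Figure D2:**
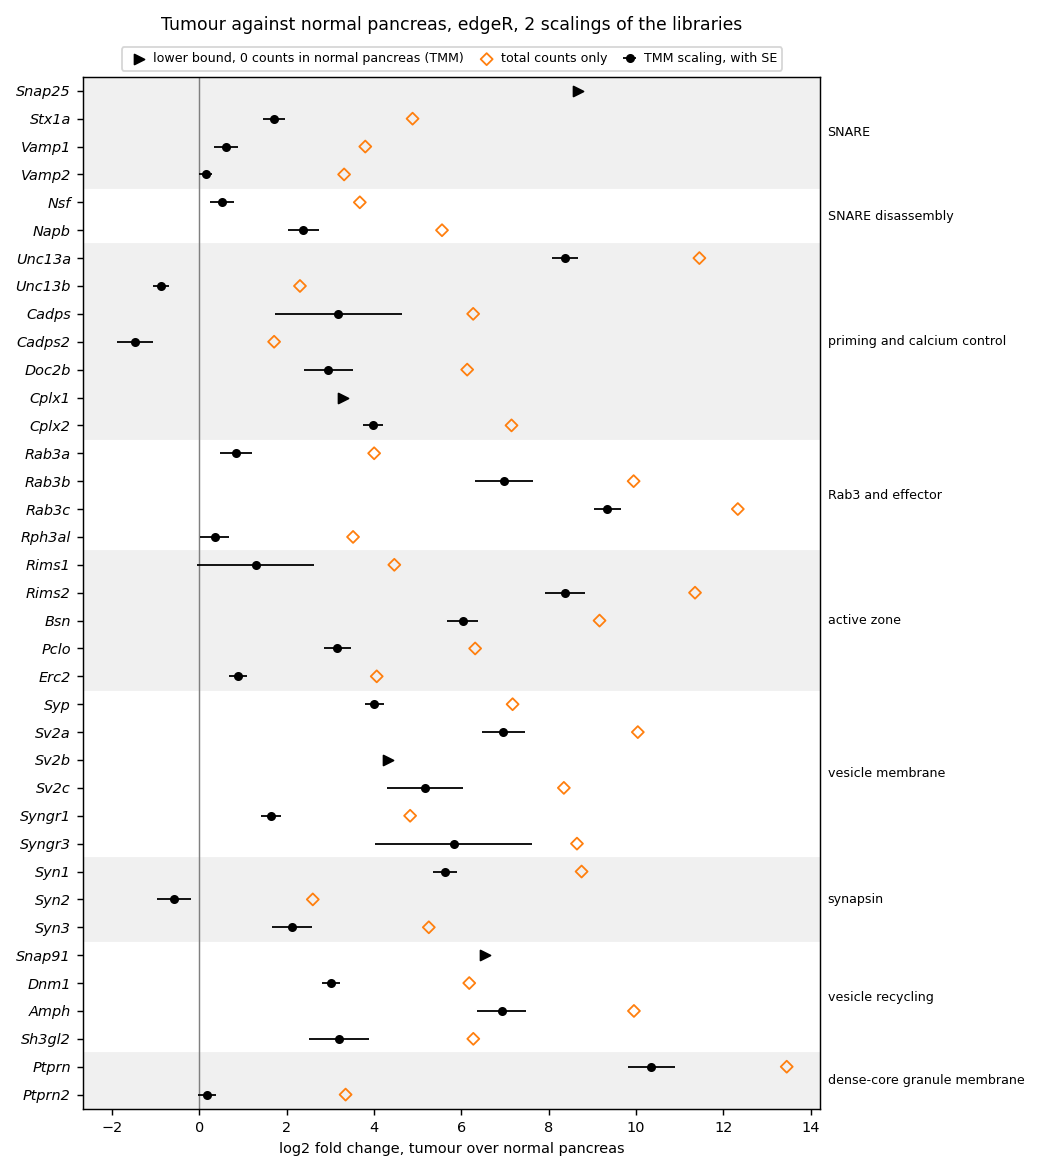
Log2 fold change of tumour over normal pancreas for the 37 tested genes, with the standard error under TMM scaling (filled points) and the value with total counts only (open diamonds); triangles are lower bounds for genes at 0 counts in normal pancreas. The diamonds lie to the right of 0 for every gene that has one, while Unc13b, Cadps2 and Syn2 lie to the left of 0 under TMM.

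Summed over the 38 genes, the machinery took 28.7 and 33.4 TPM in normal pancreas (mean 31.1 ± 3.32, SD, n = 2) and 337.9, 303.7 and 346.1 TPM in the tumours (mean 329.3 ± 22.5, SD, n = 3). The groups did not overlap, and the exact permutation p was 0.1, the smallest that 3 against 2 libraries allow. Most genes rose on this scale, as 76.1% of those tested had every tumour above both normal libraries in TPM. With total counts only, which like TPM keep the acinar RNA in the denominator, the middle gene of the 16810 rose by 3.55 log2 units. The rise of the sum therefore does not by itself set the machinery apart from other genes. Levels between genes can be compared in TPM, which is corrected for length. In the tumours 8 genes had a mean over 10 TPM, in the order Ptprn, Ptprn2, Syp, Snap25, Cplx2, Rab3a, Vamp2 and Nsf, and 7 had a mean under 1 TPM. Several neighbours in this order did not differ beyond their spread, such as Ptprn2 and Syp (32.6 ± 5.85 and 29.1 ± 2.48 TPM, SD, n = 3). Cplx2, Rab3a and Vamp2 (17.8 ± 4.87, 13.8 ± 4.24 and 12.4 ± 1.18 TPM) were not separated either, and Rab3a exceeded Cplx2 in tumours 2 and 3. In normal pancreas 8 of the genes had a mean over 1 TPM, led by Ptprn2 (10.5 ± 1.68 TPM, SD, n = 2), Vamp2 (3.65 ± 0.0212 TPM) and Rab3a (2.98 ± 0.255 TPM). TPM is a share of all RNA in a library, so a gene's TPM also moves with the acinar RNA of the normal libraries.

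The SNARE genes were uneven: Snap25 and Stx1a rose and Vamp1 and Vamp2 did not pass. Snap25 (ENSMUSG00000027273.13, GRCm38 chromosome 2, 136713453 to 136782428, + strand) encodes a plasma membrane SNARE that some botulinum neurotoxins cut. It had 0 counts in both normal libraries and 1775, 1392 and 694 counts in tumours 1, 2 and 3, or 23.8, 20.6 and 20.6 TPM. The tumours differed from each other by little, with the highest CPM 1.11 times the lowest. Against a floor of 3 counts over the normal group, Snap25 was at least 409-fold higher (edgeR adjusted p = 2.37e-05), and at least 202-fold with normal pancreas 1 alone and 207-fold with normal pancreas 2 alone. Stx1a, a plasma membrane syntaxin, rose from 2.27 and 2.80 CPM to 9.78, 6.75 and 8.31 CPM, a log2 fold change of 1.71 (SE 0.26, edgeR adjusted p = 0.00153). The vesicle SNARE gene Vamp2 (synaptobrevin) measured 23.3 and 22.1 CPM in normal and 23.95, 23.0 and 28.2 CPM in tumour tissue. Its groups overlapped, with a log2 fold change of 0.14 (SE 0.15, edgeR adjusted p = 0.421). Vamp1, its close relative, measured 3.10 and 4.35 CPM in normal and 6.83, 5.54 and 4.57 CPM in tumour tissue (log2 0.61, SE 0.28, edgeR adjusted p = 0.0949). All tumour values of Vamp1 lay above both normal values, by a margin smaller than the spread within each group.

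For the disassembly of SNARE complexes, the adaptor gene Napb rose and the ATPase gene Nsf did not pass. Napb, which encodes the SNAP adaptor found mostly in brain, rose from 1.89 and 1.77 CPM to 6.30, 12.4 and 10.04 CPM (log2 2.38, SE 0.35, edgeR adjusted p = 0.00145). Nsf measured 23.1 and 25.6 CPM in normal and 31.4, 25.7 and 47.7 CPM in tumour tissue (log2 0.52, SE 0.27, edgeR adjusted p = 0.133). Tumour 3 was the highest, tumour 2 sat just above the normal libraries, and without tumour 2 Nsf passed (log2 0.70, edgeR adjusted p = 0.0315).

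Priming factors held both the steep rises and the only falls. Of 7 genes for priming and calcium control, 4 rose (Unc13a, Doc2b, Cplx1 and Cplx2), 2 fell (Unc13b and Cadps2) and Cadps did not pass. Unc13a (ENSMUSG00000034799.16, GRCm38 chromosome 8, 71624417 to 71671757, - strand) and Unc13b (ENSMUSG00000028456.18, chromosome 4, 43058953 to 43264871, + strand) encode Munc13 proteins, which open syntaxin so that SNARE complexes can form. Their RefSeq promoters (GRCm38.p6, 250 bases before to 50 after a start) are shown with that of Cadps2 because these genes moved in opposite directions. Capitals mark the E-box CACGTG, a site for MYC and other basic helix-loop-helix factors, searched on both strands, where it reads the same.
Unc13a (chr8:71671708-71672007, minus strand): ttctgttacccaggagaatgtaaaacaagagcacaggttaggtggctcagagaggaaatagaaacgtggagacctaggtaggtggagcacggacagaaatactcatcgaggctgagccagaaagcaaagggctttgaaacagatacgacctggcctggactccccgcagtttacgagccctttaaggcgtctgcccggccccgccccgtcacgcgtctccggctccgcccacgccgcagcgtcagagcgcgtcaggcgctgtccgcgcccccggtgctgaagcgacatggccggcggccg
Unc13b (chr4:43058703-43059002, plus strand): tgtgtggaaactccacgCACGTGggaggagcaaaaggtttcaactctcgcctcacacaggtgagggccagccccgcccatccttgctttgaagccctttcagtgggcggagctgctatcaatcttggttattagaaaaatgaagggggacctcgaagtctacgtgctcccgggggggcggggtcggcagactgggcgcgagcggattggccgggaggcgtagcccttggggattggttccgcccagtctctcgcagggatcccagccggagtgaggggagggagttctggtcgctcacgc
Cadps2 (chr6:23839372-23839671, minus strand): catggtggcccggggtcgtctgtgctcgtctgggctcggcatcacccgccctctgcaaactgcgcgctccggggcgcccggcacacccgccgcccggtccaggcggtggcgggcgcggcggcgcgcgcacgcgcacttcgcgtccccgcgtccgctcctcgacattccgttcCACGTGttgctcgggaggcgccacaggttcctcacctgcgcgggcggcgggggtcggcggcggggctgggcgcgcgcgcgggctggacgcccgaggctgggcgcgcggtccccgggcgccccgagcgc
The promoters of both genes that fell hold 1 E-box each and that of Unc13a holds none. Over the 39 promoters of the 32 genes with an entry, 4 (10.3%) hold it, those of Cadps2, Nsf, Unc13b and 1 of the 4 of Sv2b, against 7.15% of all 32851 RefSeq promoters of this length.

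Unc13a had 2 counts in each normal library and 2161, 1405 and 769 counts in the tumours. In scaled units that was 0.151 and 0.147 CPM against 57.4, 43.5 and 53.3 CPM, a log2 fold change of 8.38 (SE 0.29, edgeR adjusted p = 1.75e-05). All tumours were far above both normal libraries. The exons of Unc13a share 495 bases with Colgalt1 on the other strand, and the strandedness of the libraries is not given in the sources used here, so reads there cannot be told apart. Unc13b went the other way, from 31.9 and 35.5 CPM to 21.7, 15.7 and 17.4 CPM, with a log2 fold change of -0.88 (SE 0.17) and an edgeR adjusted p of 0.00481. In TPM the same gene was higher in every tumour (4.39, 3.10 and 2.97 against 1.73 and 1.91), and with total counts only its log2 fold change was 2.30. Measured from the median of all genes it lay at -1.26 with TMM and -1.25 with total counts. In TPM Unc13b was the more abundant of the pair in normal pancreas and Unc13a in all 3 tumours (12.1, 7.45 and 8.35).

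The CAPS genes, whose products prime dense-core vesicles, were low and variable in tumour. Cadps2 measured 8.77 and 10.5 CPM in normal and 1.73, 4.77 and 4.02 CPM in tumour tissue, with tumour 1 the lowest. Its log2 fold change was -1.47 (SE 0.41), with an edgeR adjusted p of 0.0188. That call was lost without normal pancreas 1 (edgeR adjusted p = 0.0659), without normal pancreas 2 (0.112) and with counts corrected for transcript length (0.0670). Cadps had 4 and 0 counts in normal and 8, 89 and 18 in tumour libraries, and its CPM groups overlapped (log2 3.18, SE 1.45, edgeR adjusted p = 0.0912). Without tumour 1 it passed (log2 3.72, edgeR adjusted p = 0.0149).

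Complexins bind assembled SNARE complexes and set their readiness to fuse. Cplx2 rose from 6.35 and 6.85 CPM to 124.3, 84.5 and 101.7 CPM (log2 3.97, SE 0.23, edgeR adjusted p = 4.49e-05), with a clear gap between groups. Cplx1 had 0 counts in both normal libraries and 41, 39 and 12 in the tumours, so it was at least 9.74-fold higher with an edgeR adjusted p of 0.00201. The bound was 4.81-fold with normal pancreas 1 alone and 4.94-fold with normal pancreas 2 alone. In TPM, Cplx2 stood at 23.4, 15.0 and 15.0 in the tumours and Cplx1 at 0.49, 0.51 and 0.29, so Cplx2 was the main complexin of the pair in each. Doc2b, a calcium sensor of slow and spontaneous release, rose from 0.907 and 0.516 CPM to 3.67, 8.67 and 4.22 CPM (log2 2.96, SE 0.55, edgeR adjusted p = 0.0038), with tumour 2 the highest.

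Of the Rab3 GTPases, which sit on vesicles and recruit docking factors, Rab3b and Rab3c rose and Rab3a did not pass. Rab3c had 1 count in each normal library and 1668, 1843 and 795 in the tumours, for a pooled ratio of 684 (95% interval 189 to 5651, edgeR adjusted p = 1.62e-05). Rab3b had 2 and 0 counts in normal and 270, 345 and 181 in tumour libraries. Its ratio of pooled counts was 127, with a 95% interval of 34.9 to 1046 (edgeR adjusted p = 0.000227). The ratio rests on the 2 counts of normal pancreas 1: with normal pancreas 2 alone it was at least 42.7 and with normal pancreas 1 alone 62.4. Rab3a measured 11.2 and 12 CPM in normal and 11.8, 23.0 and 27.7 CPM in tumour tissue (log2 0.84, SE 0.36, edgeR adjusted p = 0.0757). Tumour 1 lay between the normal libraries and the other tumours above them, and without tumour 1 the gene passed (log2 1.13, edgeR adjusted p = 0.0014). In TPM Rab3b and Rab3c stood about level in tumour, below Rab3a (means of 13.8 ± 4.24 for Rab3a, 6.71 ± 1.21 for Rab3b and 6.55 ± 0.887 for Rab3c, SD, n = 3), whereas in normal pancreas Rab3a had 2.98 TPM and the others 0.015 TPM. Rph3al, which encodes a Rab3 and Rab27 effector of endocrine and exocrine granules, measured 11.04 and 13.9 CPM in normal and 20.7, 9.48 and 17.5 CPM in tumour tissue (log2 0.35, SE 0.34, edgeR adjusted p = 0.389). Its lowest value was in tumour 2, and without that library it passed (log2 0.62, edgeR adjusted p = 0.0221).

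At the active zone, the protein meshwork that holds vesicles opposite calcium channels, 4 of 5 genes rose and Rims1 did not pass. Rims2, a Rab3-binding scaffold, had 0 and 2 counts in normal and 997, 789 and 417 in tumour libraries. The ratio of pooled counts was 350, with a 95% interval of 96.8 to 2892 (edgeR adjusted p = 3.72e-05), 177 with normal pancreas 2 alone and at least 115 with normal pancreas 1 alone. Its relative Rims1 measured 1.66 and 2.06 CPM in normal and 0.0797, 7.96 and 5.82 CPM in tumour tissue. Tumour 1 lay far below the normal libraries and the other tumours above them (log2 1.29, SE 1.34, edgeR adjusted p = 0.418), and without tumour 1 the gene passed (log2 1.90, edgeR adjusted p = 0.00232). Bsn, which encodes the giant scaffold bassoon, rose from 0.68 and 0.368 CPM to 35.4, 26.6 and 41.8 CPM (log2 6.03, SE 0.36, edgeR adjusted p = 4.76e-05). Pclo, for the related scaffold piccolo, rose from 6.12 and 5.89 CPM to 41.9, 45.4 and 74.4 CPM (log2 3.16, SE 0.31, edgeR adjusted p = 0.000266). Neither scaffold showed overlap between groups. Erc2, which encodes the ELKS family protein CAST, rose from 5.14 and 6.92 CPM to 9.59, 11.7 and 12.2 CPM (log2 0.88, SE 0.21, edgeR adjusted p = 0.00994). It no longer passed without normal pancreas 1 (log2 0.68, edgeR adjusted p = 0.0826).

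All 6 tested genes of the vesicle membrane rose. Syp (ENSMUSG00000031144.15, GRCm38 chromosome X, 7638471 to 7653256, + strand) encodes synaptophysin, a standard stain for neuroendocrine tumours. It had 0.59 and 0.73 TPM in normal pancreas and 26.3, 31.0 and 30.1 TPM in the tumours, which were close to each other, and its exons share 875 bases with Gm14703 on the other strand. SV2 proteins are transporter-like glycoproteins of synaptic and endocrine vesicles, and SV2A is the target of the antiepileptic drug levetiracetam. Sv2a rose from 0.227 and 0.147 CPM to 15.5, 26.7 and 29.8 CPM (log2 6.96, SE 0.50, edgeR adjusted p = 8.64e-05). Sv2b had 0 counts in both normal libraries and 86, 33 and 70 in the tumours, so it was at least 20.02-fold higher with an edgeR adjusted p of 0.00597. The bound was 9.88-fold with normal pancreas 1 alone and 10.1-fold with normal pancreas 2 alone. Sv2c rose from 0.454 and 0.516 CPM to 33.5, 10.6 and 8.52 CPM (log2 5.17, SE 0.87, edgeR adjusted p = 0.00242), and without tumour 1 its log2 fold change was 4.29. Tumour 1 was the highest for Sv2c and the lowest for Sv2a, so the order of the 2 genes differed: in TPM, Sv2c exceeded Sv2a in tumour 1 (4.65 and 3.82) and lay below it in tumours 2 and 3 (1.29 and 0.86 against 5.71 and 5.31).

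Synaptogyrins are tetraspan relatives of synaptophysin. Syngr1 rose from 8.85 and 12.2 CPM to 28.2, 38.8 and 31.0 CPM (log2 1.64, SE 0.22, edgeR adjusted p = 0.000952). Syngr3 had 0 and 1 counts in normal and 8, 131 and 44 in tumour libraries, a ratio of pooled counts of 58.2 with a 95% interval of 10.3 to 2309 (edgeR adjusted p = 0.0269). The ratio was 29.5 with normal pancreas 2 alone, at least 9.56 with normal pancreas 1 alone, 100.4 without tumour 1 and 26.8 without tumour 2. The call for Syngr3 was lost without normal pancreas 1 (edgeR adjusted p = 0.135), normal pancreas 2 (0.0959), tumour 2 (0.0516) or tumour 3 (0.0527). Slc17a6, which encodes a vesicular glutamate transporter, had 0 counts in both normal libraries and 6, 1 and 2 in the tumours. It was too low to test and was the least abundant of the 38 genes in tumour, at 0.04, 0.01 and 0.02 TPM.

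Synapsins tether vesicles to each other in the reserve pool. Syn1 and Syn3 rose and Syn2 did not pass. The RefSeq promoter of Syn1 is shown because it was the only one of the 39 with a match to RE1, the element bound by the neuronal gene repressor REST. RE1 was searched on both strands as TTCAGCACC, any 2 bases and GGACAGCGC, with at most 3 mismatches in the 18 fixed letters, and the cyclic AMP response element (CRE) as TGACGTCA. The first run of capitals is the RE1 match, with 2 mismatches, which starts 232 bases before the start site, and the second is the CRE.
Syn1 (chrX:20920869-20921168, minus strand): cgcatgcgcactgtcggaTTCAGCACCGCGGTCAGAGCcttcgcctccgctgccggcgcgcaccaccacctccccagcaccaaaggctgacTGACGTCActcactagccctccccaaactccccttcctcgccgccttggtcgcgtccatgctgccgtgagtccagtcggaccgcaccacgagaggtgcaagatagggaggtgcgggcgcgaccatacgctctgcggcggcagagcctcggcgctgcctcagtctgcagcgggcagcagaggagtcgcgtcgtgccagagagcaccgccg
An RE1 match of this kind occurs in 37 of the 32851 promoters (0.113%). A match is only a match of letters, and windows of 300 bases miss elements further away or inside the gene.

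Syn1 rose from 0.227 and 0.368 CPM to 14.5, 14.2 and 16.6 CPM (log2 5.63, SE 0.27, edgeR adjusted p = 2.92e-05). The tumours were tightly grouped, with the highest 1.16 times the lowest. Syn3 rose from 0.378 and 0.442 CPM to 2.21, 1.42 and 1.73 CPM (log2 2.11, SE 0.46, edgeR adjusted p = 0.00688). Its call was lost without normal pancreas 1 (edgeR adjusted p = 0.0518), and its exons share 1733 bases with Timp3 on the other strand. Syn2 measured 6.80 and 10.4 CPM in normal and 3.22, 6.88 and 7.34 CPM in tumour tissue, and the groups overlapped (log2 -0.58, SE 0.39, edgeR adjusted p = 0.224). By TPM, Syn2 was the main synapsin of normal pancreas, at 0.74 and 1 against at most 0.06 for the other two. Syn1 was the main one in each tumour, at 4.24, 3.91 and 3.80 against 0.90, 1.85 and 1.53 for Syn2.

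All 4 genes of membrane retrieval rose. Sh3gl2 encodes endophilin, which bends the membrane and recruits synaptojanin. Its promoter is shown because, with that of Syn1, it is 1 of 2 of the 39 (5.13%) with a CRE, marked in capitals, against 1.79% of all promoters.
Sh3gl2 (chr4:85205206-85205505, plus strand): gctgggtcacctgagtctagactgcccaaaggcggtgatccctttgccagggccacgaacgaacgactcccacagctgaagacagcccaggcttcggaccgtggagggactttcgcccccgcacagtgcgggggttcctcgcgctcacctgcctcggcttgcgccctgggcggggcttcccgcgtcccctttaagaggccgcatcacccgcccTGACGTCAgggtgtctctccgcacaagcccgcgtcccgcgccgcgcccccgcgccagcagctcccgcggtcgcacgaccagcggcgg
Sh3gl2 rose from 0.302 and 0.147 CPM to 2.07, 1.15 and 3.19 CPM (log2 3.20, SE 0.69, edgeR adjusted p = 0.00682). Its call was lost without normal pancreas 2 (edgeR adjusted p = 0.0552), and without normal pancreas 1 its log2 fold change was 3.80. Snap91, for the clathrin adaptor AP180, had 0 counts in both normal libraries and 234, 421 and 226 in the tumours, so it was at least 93.3-fold higher with an edgeR adjusted p of 0.000651. The bound was 46.0-fold with normal pancreas 1 alone and 47.3-fold with normal pancreas 2 alone. Dnm1, for the neuronal dynamin that pinches vesicles off, rose from 2.42 and 1.84 CPM to 15.1, 18.2 and 18.4 CPM (log2 3.01, SE 0.21, edgeR adjusted p = 8.21e-05). Amph encodes amphiphysin, which brings dynamin to the vesicle neck. It had 1 and 2 counts in normal and 618, 290 and 253 in tumour libraries, a ratio of pooled counts of 123 with a 95% interval of 42.0 to 597 (edgeR adjusted p = 0.000129). None of these genes showed overlap between the groups.

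The pair of receptor-type phosphatase homologues of dense-core granule membranes, both known as autoantigens of type 1 diabetes, took 39.7% of the summed tumour TPM of the 38 genes. Ptprn (IA-2, ENSMUSG00000026204.15, GRCm38 chromosome 1, 75247027 to 75264502, - strand) had the largest fitted rise of the 38 genes among those with more than 3 counts in normal pancreas. One of its RefSeq promoters, the one nearer the annotated 5′ end, is shown because Ptprn was the most abundant of the 38 genes in every tumour, and it holds none of the 3 motifs.
Ptprn (chr1:75264159-75264458, minus strand): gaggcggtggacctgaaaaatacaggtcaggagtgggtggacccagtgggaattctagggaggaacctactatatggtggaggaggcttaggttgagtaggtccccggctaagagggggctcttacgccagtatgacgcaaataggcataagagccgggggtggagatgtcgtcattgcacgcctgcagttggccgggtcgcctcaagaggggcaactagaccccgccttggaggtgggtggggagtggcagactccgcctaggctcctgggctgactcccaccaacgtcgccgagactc
Ptprn had 3 and 5 counts in normal and 12350, 9824 and 8048 in tumour libraries, which is 0.227 and 0.368 CPM against 328, 304 and 557 CPM. The log2 fold change was 10.35 (SE 0.53, edgeR adjusted p = 3.33e-05), and tumour 3 was the highest. Ptprn2 (phogrin) was already expressed in normal pancreas, at 95.4 and 124 CPM, and had 133, 100 and 139 CPM in tumour. Its groups overlapped (log2 0.17, SE 0.21, edgeR adjusted p = 0.479). In TPM, Ptprn2 exceeded Ptprn in normal pancreas (9.36 and 11.7 against 0.02 and 0.03) and Ptprn exceeded Ptprn2 in the tumours (92.9, 80.9 and 120.5 against 38.8, 27.2 and 31.8).

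Each of 13 exocytosis genes was also set against a relative from the same gene family in the same library, in 15 pairs. The relatives were not all a steady baseline: Rab3d and Vamp8 are zymogen granule genes that fell in the TMM fit. Unc13d had only 0.03 and 0.02 TPM in normal pancreas. The ratio was taken as log2 of TPM + 0.1, and the added 0.1 draws the ratio of a gene with low TPM toward 0, most of all in normal pancreas. For Amph to Bin1 the difference between the groups was 4.42 in this ratio and 7.27 between the fitted log2 fold changes of the 2 genes. In 14 of 15 pairs the ratio was higher in every tumour than in both normal libraries, and in 1 pair (Erc2 to Erc1) it was lower in every tumour. The same count was not taken over other pairs of genes, so it has no background beside it. Most of the 13 genes had already been called higher by themselves, and several of the relatives had been called lower. For each pair the two-sided exact permutation p was 0.1, the smallest that these libraries allow, and 0.1 after adjustment over the 15 pairs. The differences between group means ran from -1.08 to 7.46 on the log2 scale.

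The plasma membrane SNARE and synaptophysin passed from the minor to the major share of their pairs. Snap25 took 0% of the summed TPM of Snap25 and Snap23 in both normal libraries and 83.3%, 86.4% and 88.1% in the tumours. Its log2 ratio in normal pancreas, like that of Snap91 to Picalm, is set by the added 0.1, so no difference is given for it. Snap23, the SNARE of constitutive and zymogen granule fusion, had a log2 fold change of -1.16 and fell. Syp took 2.50% and 3.42% of the pair with Sypl in normal pancreas and 82.0%, 87.1% and 88.6% in the tumours (difference 7.46). Rab3a, which did not pass by itself, moved from 7.56% and 8.04% of the pair with Rab3d, the Rab3 of zymogen granules, to 50.2%, 63.3% and 64.9% (difference 4.08). Vamp2, which did not pass either, moved from 10.6% and 12.3% of the pair with Vamp8, a zymogen granule SNARE, to 57.1%, 55.2% and 64.6% (difference 3.44). Against Vamp3 its share went only from 53.1% and 52.3% to 65.2%, 67.5% and 67.9% (difference 0.85). In these 3 pairs the relative fell in the TMM fit (Vamp8 by 3.12, Rab3d by 3.32 and Vamp3 by 0.49 on the log2 scale). With total counts only Vamp8 and Vamp3 turned to log2 values of 0.07 and 2.68.

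Among the other pairs, Stx1a went from 10.3% and 12.2% to 44.1%, 42.3% and 47.3% against Stx4a, and from 32.1% and 41.4% to 64.1%, 54.8% and 73.2% against Stx3. Syngr1 went from 7.02% and 10.1% to 33.9%, 37.9% and 37.7% against Syngr2. Dnm1 went from 9.81% and 9.29% to 36.1%, 45.1% and 39.9% against Dnm2, the ubiquitous dynamin. Amph, at 0.166% and 0.202% against Bin1 in normal pancreas, stood at 35.8%, 19.95% and 34.2% in tumour. Napb, Snap91 and Sh3gl2 remained the minor partner in each tumour, at 6.19% to 12.2% against Napa, 7.68% to 17.01% against Picalm and 12.6% to 24.3% against Sh3gl1. Unc13a took 98.3%, 91.4% and 95.5% of the pair with Unc13d in the tumours, but both genes were so low in normal pancreas that its share there was 66.7% and 0%. Erc2 was the exception, down from 80.3% and 76.2% to 54.1%, 62.3% and 59.5% (difference -1.08), and with estimated counts in place of TPM the sign turned (0.20).

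**Figure D3:**
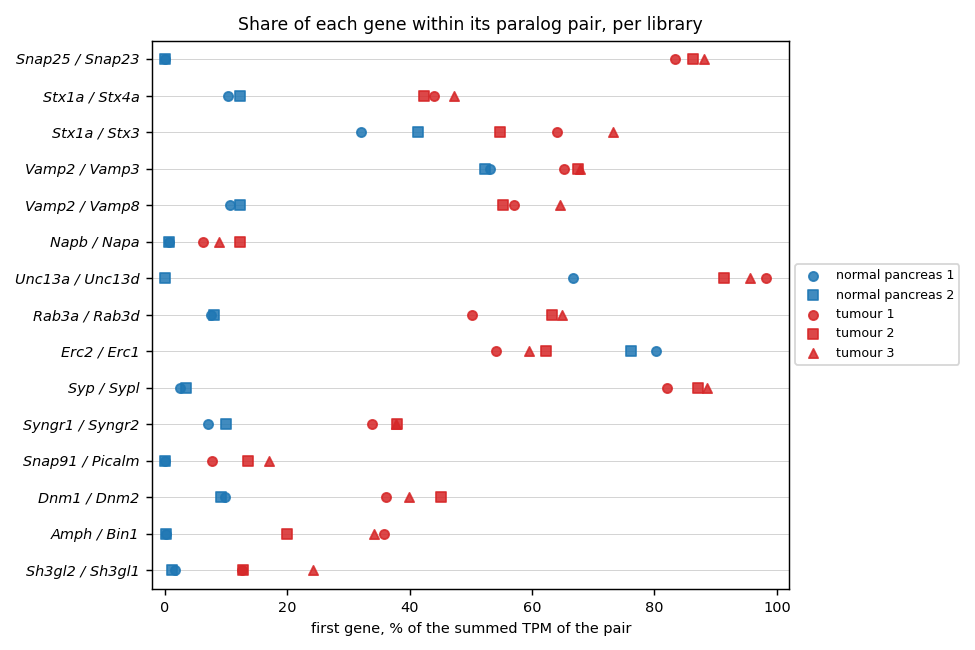
Share of each gene in the summed TPM of a pair with a relative from the same gene family, for 15 pairs. Each point is 1 library, in % of the pair. Tumour points lie to the right of normal points in 14 pairs and to the left in Erc2 with Erc1, and the widest gaps are those of Snap25 and Syp.

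The wider machinery outside the 38 genes, 80 further genes listed by function and not by how they moved, did not move in one direction. Of 70 tested, 28 rose, 24 fell and 18 did not pass, with a median log2 fold change of 0.20 against 0.38 for all genes. Shares of 39.2% higher and 27.8% lower over all genes are the background here too. Among the SNAREs, Stx2 rose, and Stx4a, Snap23, Snap29, Vamp3 and Vamp8 fell. The SNAP adaptor genes Napa and Napg both fell. Among 11 Munc18 family genes and SNARE regulators, 6 rose and 3 fell, Stxbp2 among the falls (35.9 and 27.5 CPM against 13.6, 10 and 11.1 CPM). Stxbp2 encodes a Munc18 of epithelial and blood cells, which binds syntaxin and guides SNARE assembly. Of 8 active zone genes 5 rose and 2 fell. Rimbp2, which links RIM scaffolds to calcium channels, was among the rises (log2 6.57, SE 0.40, edgeR adjusted p = 5.3e-05). The falls were Rims4, a short member of the RIM family (16.3 and 18.2 CPM against 0.691, 0.217 and 0.277 CPM), and Ppfia1, for a liprin scaffold (28.8 and 36.1 CPM against 22.6, 20.04 and 19.6 CPM). The endocytic gene Pacsin1 had 1 and 0 counts in normal and 609, 487 and 230 in tumour libraries, a ratio of pooled counts of 421 with a 95% interval of 75.5 to 16650 (edgeR adjusted p = 3.22e-05). The ratio was 207.9 with normal pancreas 1 alone and at least 71.1 with normal pancreas 2 alone. The vesicle gene Scamp5 rose with a log2 fold change of 3.18 (SE 0.22, edgeR adjusted p = 8e-05). The falls with the smallest p were those of Sypl, Vamp8 and Rab3d, described above as partners in pairs. Of 6 vesicular transmitter transporters only Slc18a1, for the vesicular monoamine transporter of endocrine cells, had enough counts to test, and it rose. Apart from the 3 genes with the smallest p in each direction and the partners in pairs, the genes named in this paragraph were chosen after their values were seen.

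The 3 tumours were not alike in all of the machinery. Over the 37 tested, the highest tumour CPM was a median 1.75 times the lowest, against 1.45 times over all genes. It was over 3 times the lowest in 5 of 37, a share close to the 11.6% of all genes, and in the untested Slc17a6. Rims1 stood out with 99.8 times, from 0.0797 CPM in tumour 1 to 7.96 CPM in tumour 2. Syngr3 followed with 19.1 times and Cadps with 13.0 times, and both were lowest in tumour 1 and highest in tumour 2. Sv2b varied 4.74 times, with tumour 3 the highest, and Sv2c varied 3.94 times, with tumour 1 the highest. Tumour 3 was the highest for 20 of the 37 genes and the lowest for 3, while tumours 1 and 2 were each the lowest for 17. These counts were not taken over all genes, so the order cannot be called particular to the machinery. Tumour 3 was also the shallowest library and held the most acinar RNA of the tumours (627 TPM against 26.2 and 10.1), and the part of either in this order was not tested. At the other end, the 8 genes with the smallest differences (Snap25, Syn1, Rims2, Dnm1, Vamp2, Erc2, Rab3c and Unc13a) varied by at most 1.32 times between tumours.

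**Figure D4:**
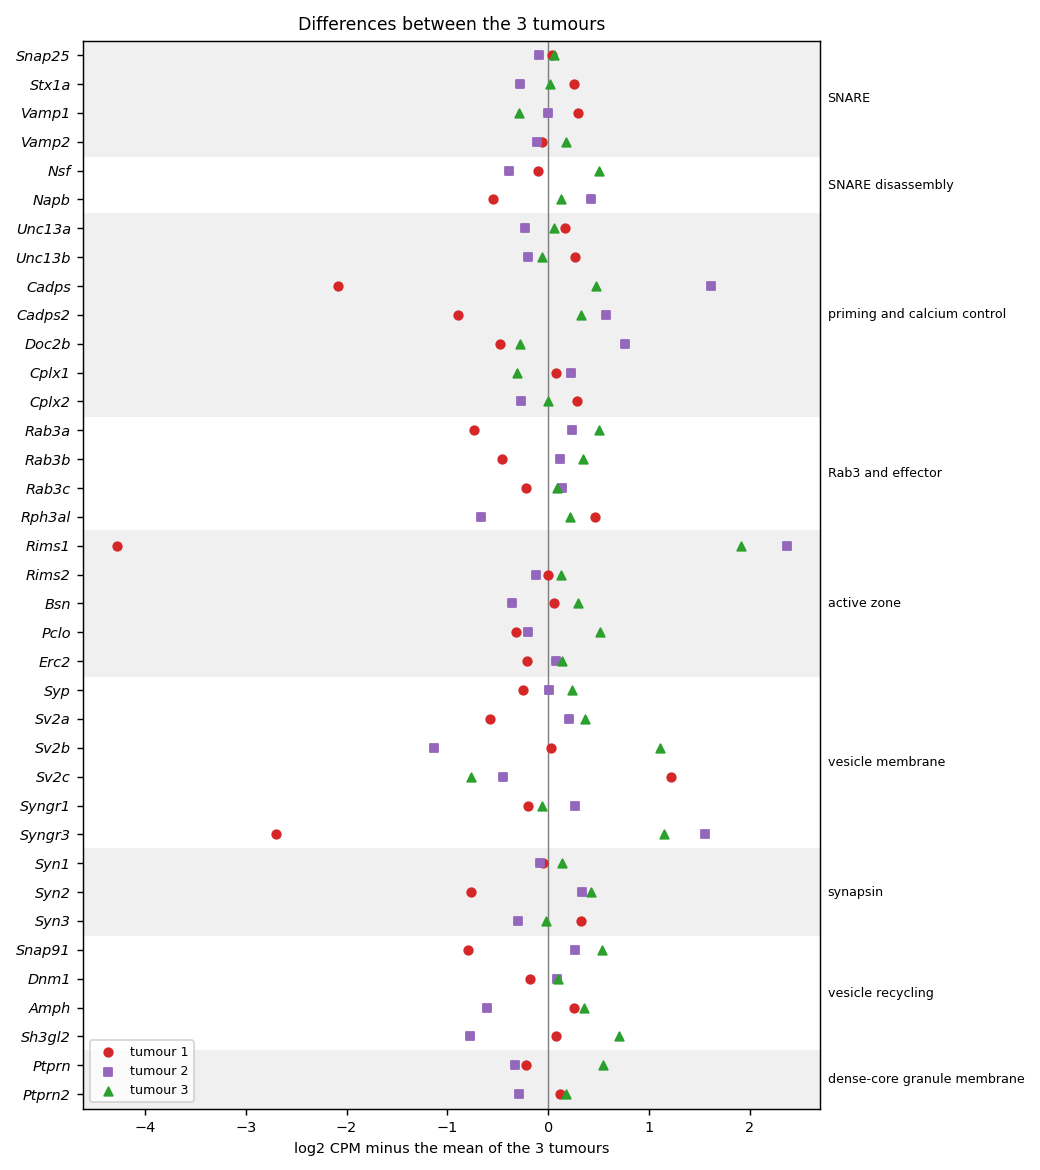
Log2 CPM of each tested gene in each tumour, relative to the mean of the 3 tumours. Most points lie within 1 log2 unit of 0, and Rims1, Syngr3 and Cadps in tumour 1 lie furthest to the left.

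RSEM reports for each gene and library a transcript length weighted by the estimated abundance of its isoforms, without any scaling between libraries. Whether a change in this length comes from isoform use was not tested. Exons of Pclo share 429 bases with Gm26918 and 496 with Gm26954 on the other strand. Those of Erc2 share 106 bases with Gm45645 and those of Syn2 share 90 with Timp4, also on the other strand. The length was compared for the 17 of the 38 genes with at least 20 counts in every library, since it is poorly set at low counts. In 5 genes (Pclo, Erc2, Syngr1, Syn2 and Dnm1) it was longer in every tumour than in both normal libraries, in 6 (Stx1a, Vamp1, Vamp2, Napb, Unc13b and Rph3al) it was shorter, and in 6 the groups overlapped. Over 9884 genes with such counts it was longer in 18.0% and shorter in 25.0%. Syngr1 had 1618 and 1660 bases in normal pancreas and 3584, 3717 and 3706 bases in tumour, 2.24 times as long on average. Erc2 had 1650 and 1998 bases in normal pancreas and 3446, 3978 and 4033 bases in tumour, 2.09 times as long. Pclo had 9927 and 10930 bases against 15933, 15283 and 15597 bases, and Dnm1 had 2521 and 1963 bases against 3502, 3355 and 3087 bases. Only 170 of the 9884 genes were longer in every tumour by over 1.5 times. Unc13b, in the other direction, had 5820 and 5670 bases in normal pancreas and 4611, 4444 and 4289 bases in tumour.

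A longer transcript gives more fragments per molecule, so a count rises with length. When the counts were corrected for effective length, an alternative chosen after seeing the data, 26 of the 37 genes passed as higher and 1 (Unc13b) as lower, against 37.3% and 26.2% of all genes. Erc2 (log2 -0.27, edgeR adjusted p = 0.224) and Syngr1 (log2 0.37, edgeR adjusted p = 0.159) no longer passed, and Vamp1 (log2 0.90, edgeR adjusted p = 0.0371) and Nsf (log2 0.69, edgeR adjusted p = 0.0499) did. The log2 fold change of Pclo went from 3.16 to 2.54 and that of Dnm1 from 3.01 to 2.40, and that of Unc13b from -0.88 to -0.53. Sv2c went from 5.17 to 3.13, Bsn from 6.03 to 5.29 and Syn3 from 2.11 to 1.48, but these genes had under 20 counts in both normal libraries, where the length is poorly set.

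**Figure D5:**
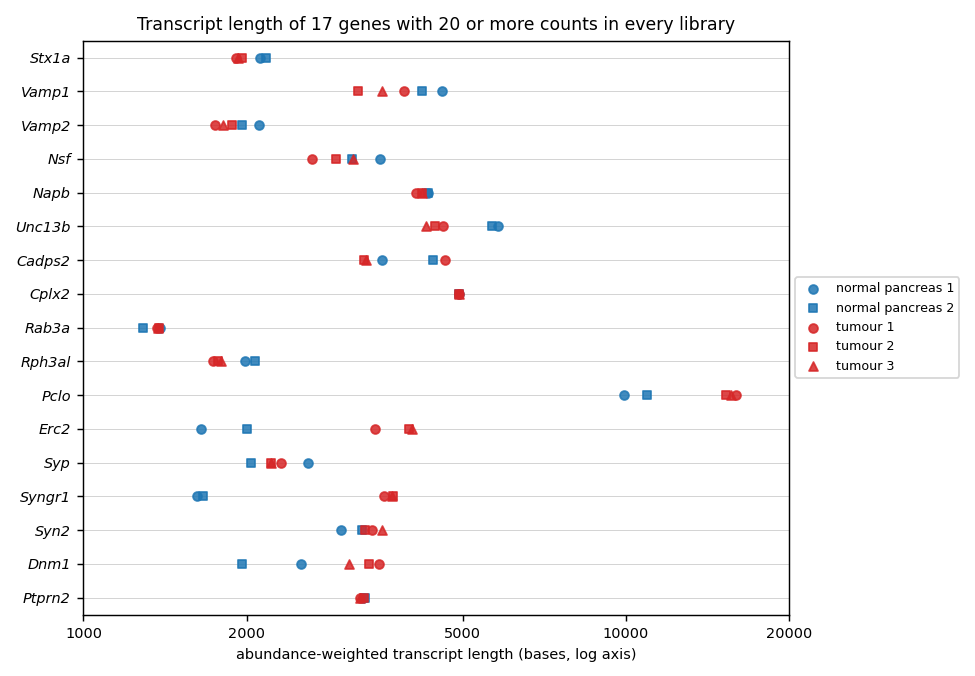
Abundance-weighted transcript length in bases, on a log axis, of the 17 genes with 20 or more counts in every library; each point is 1 library. The tumour points of Syngr1, Erc2, Pclo and Dnm1 lie to the right of the normal points, and those of Unc13b to the left.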

How the data were processed

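RNA-seq of 3 tumours and 2 normal pancreas samples was analysed from the processed tables. The authors deposited estimated counts per gene, in which a read shared by several genes is divided among them, and TPM values. Trim Galore 0.60, STAR 2.7 and RSEM 1.31 were used, per the submitters' processing notes, with mm10 and GRCm38, and no further setting is named there. The effective length and transcript length per gene, values of another kind in bases, come from the deposited RSEM output of each single library. They were used only for the length comparison. The 92 spike-in rows, all at 0 counts, were left out.

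Counts were rounded and tested with edgeR 4.0.16 (R 4.3.3; glmQLFit, glmQLFTest, TMM, filterByExpr defaults, Benjamini-Hochberg over 16810 genes, threshold 0.05, no covariates). SE is the absolute log2 fold change over the square root of F. CPM uses the TMM-scaled library size. All 190 values of the 38 genes were whole within 0.005. Alternatives used DESeq2 1.42.0, limma 3.58.1 (trend, genes of mean TPM above 0.1) and other settings given in the closing section. The 3 kinds of fit were tested on simulated counts in which a small part of the genes changed, up and down in equal number. That setting lacks the large shift in acinar RNA of these libraries, so it cannot show how the fits behave under it. Genes at 0 in normal pancreas have a bound against 3 counts over the group, and genes with 1 to 3 counts a pooled ratio with an exact 95% binomial interval. Both cover counting error only, since reads are not independent molecules. No replicate pair agreed within sampling noise (chi-square over degrees of freedom was 24.8 between the normal libraries and 39.3 to 64.2 between tumours). Coordinates are from GENCODE M21 on GRCm38, whose identifiers match 55094 of 55573. Promoters are from RefSeq (GRCm38.p6), matched by symbol for 32 of 38 genes.

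The 38 genes, the other lists and the tests were chosen with earlier results of these data known. The text names all 38 genes, the partners in the pairs and, of the 80 further genes, the 3 with the smallest p in each direction, and names others as chosen after their values were seen. Some genes of the lists outside the 38 are not reported here by name.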

Additional observations from a re-analysis of the deposited data

How the results depend on the processing

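Of the 26 genes of the machinery called higher, 21 kept direction and call in all 14 alternative fits. The exceptions Erc2, Syngr1, Syngr3, Syn3 and Sh3gl2 are given with their values in the text, and Syngr3 was also lost with limma on log2(TPM + 1) (adjusted p = 0.079). The number called higher ran from 23 to 29 when each library was left out and from 26 to 37 otherwise, and the number called lower from 1 to 2 when each was left out. Over all genes, 4631 to 6581 were called higher and 3443 to 4823 lower when each library was left out, with the fewest without a normal library, and 25.5% to 93.3% were higher otherwise. The number of the machinery called lower was 0 with total counts only and with limma on log2(TPM + 1) or log2(TPM + 0.1), and 1 with effective length offsets. Over all genes, the same 3 fits gave 15681, 10330 and 11336 higher and 398, 1289 and 1310 lower, and over the 80 further genes 63, 47 and 51 higher and 2, 10 and 10 lower. Without 1 normal library, the remaining one is assumed to vary like the tumours. Summing tumours 1 and 2 as 1 sample gave 30 higher and 2 lower of the 37, against 41.8% and 28.8% of all genes.

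Directions turned mainly with these fits. With total counts only, limma on log2(TPM + 1) and limma on log2(TPM + 0.1), the log2 fold changes were 2.30, 0.66 and 0.88 for Unc13b, 2.60, 0.36 and 0.61 for Syn2, 2.02, 0.35 and 0.44 for Snap23, 2.34, 0.51 and 0.62 for Stx4a, 2.68, 0.74 and 0.89 for Vamp3, 2.88, 0.96 and 1.15 for Dnm2, 2.84, 0.65 and 0.73 for Bin1, 2.98, 0.82 and 1.09 for Sh3gl1, 1.97, 0.14 and 0.21 for Snap29, 2.39, 0.56 and 0.73 for Napg, 1.72, 0.0888 and 0.0922 for Stxbp2, and 2.54, 0.84 and 1.03 for Ppfia1. Cadps2 turned to 1.71 with total counts and 0.0319 with limma on log2(TPM + 1). With total counts only, Vamp8 turned to 0.0696, Napa to 1.82 and Syngr2 to 0.92. Erc2 turned to -0.27 with effective length offsets, and Ptprn2 to -0.0031 without normal pancreas 1 (range -0.0031 to 0.393 when each library was left out). The log2 ratio Erc2 to Erc1 turned to 0.20 with counts in place of TPM, and the log2 ratio Sh3gl2 to Sh3gl1 to -0.0588 with a pseudocount of 1. TPM and total counts hold the acinar RNA of the normal libraries in their denominators; for other turns the cause was not tested.

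The 3 against 2 libraries, and normal libraries whose counts are mostly acinar, limit what can be seen for genes near 0 in normal pancreas, where folds are bounds or wide intervals. No paired analysis was possible because the tumour titles share no replicate numbers with the normal samples, and the numbers used here are only names.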

Other observations

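Synpr, a further synaptophysin relative outside the 38 genes and chosen after its values were seen, was among the most variable of the listed machinery between tumours. It had 0 counts in both normal libraries and 28, 847 and 239 in tumours 1, 2 and 3, which is 0.744, 26.2 and 16.6 CPM. It was at least 118-fold higher in tumour (edgeR adjusted p = 0.0267), at least 208-fold without tumour 1 and at least 45.8-fold without tumour 2, and its bound with a single normal library was 58.2-fold or 59.8-fold. Tumour 1 was the lowest and tumour 2 the highest, the order also seen in Rims1 (0.0797, 7.96 and 5.82 CPM), Syngr3 (0.213, 4.06 and 3.05 CPM) and Cadps (0.213, 2.76 and 1.25 CPM). Of the 7 pan-neuronal markers, Elavl3 had the same order, at 0.106, 2.45 and 1.8 CPM, and was named after its values were seen. None of the other pan-neuronal markers had it. Rbfox3 (2.525, 6.41 and 7.06 CPM) and Stmn2 (0.133, 0.403 and 0.97 CPM) were also lowest in tumour 1, but highest in tumour 3. Elavl4 (19.2, 12.6 and 19.9 CPM) was lowest in tumour 2 and highest in tumour 3. Nefl (33.3, 9.51 and 9.21 CPM), Nefm (60.9, 14.8 and 37.3 CPM) and Tubb3 (8.03, 6.41 and 6.86 CPM) were highest in tumour 1. The summed TPM of these markers was also highest there. With 3 tumours any gene has 1 of a few orders, and a shared order was not tested.

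The RefSeq promoters of the machinery genes had a median GC content of 61.3%, against 52.7% over all promoters of that length. This is a description of 39 windows of 32 genes, not a test.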
